A study of Mus musculus with 21 samples.

Results

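Neuropeptide precursor genes of hippocampal neurons, 10 in number, were followed through RNA-seq libraries of mouse hippocampus, namely Penk, Pdyn, Npy, Sst, Cck, Crh, Vip, Tac1, Tac2 and Cartpt. They were chosen by gene symbol and make up 10 of the 24498 genes in the deposited count table. The libraries came from male mice of 8 weeks given ethanol intraperitoneally at 2 g/kg, as a 20% solution in saline. The knockdown mice carried an adeno-associated virus with a U6-driven short hairpin RNA that targets Acss2, an acetyl-CoA synthetase that uses acetate, the end product of ethanol oxidation, and with a CMV promoter driving EGFP. The control mice received the same ethanol, and neither a control vector nor the time between ethanol and dissection is given in the labels. The treatment protocol places the vector in the dorsal hippocampus, but wording in the series design could also mean systemic delivery, and under the protocol ventral tissue lay away from the injection site.

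Libraries with over 1000000 gene reads were compared: 4 dorsal knockdown, 3 dorsal control, 3 ventral knockdown and 4 ventral control libraries, plus 1 knockdown library of total hippocampus that was described but not tested. These 15 libraries held 2819837 to 13240179 gene reads, with 57.4 to 81% of uniquely aligned reads in genes. Libraries are called below by group and by the replicate number in their title. The labels do not say whether replicates were separate animals, and the p-values below therefore reflect library-to-library spread alone, which may be technical. Some libraries stood apart before any comparison. Dorsal knockdown 3 had the highest summed level of 14 hypothalamic markers, 173 reads per 1000000 gene reads (CPM), of which Trh alone made 148 CPM. Ventral control 4 had a summed choroid plexus marker level of 15722 CPM, and ventral control 3 had a summed dentate granule cell marker level of 1208 CPM. The targeted gene Acss2 averaged 30.5 ± 13.8 CPM in dorsal knockdown libraries (SD, n = 4) and 54.7 ± 3.32 CPM in dorsal control libraries (SD, n = 3), and the groups did not overlap. In the ventral hippocampus Acss2 averaged 42.9 ± 18.2 CPM in knockdown libraries (SD, n = 3) and 49.9 ± 3.02 CPM in control libraries (SD, n = 4), and the groups overlapped. The highest Acss2 level of the 15 libraries, 63.4 CPM, was in ventral knockdown 3. The knockdown label thus did not go with lower Acss2 in that library.

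Neuropeptides are made as large precursors that proteases in dense-core vesicles cut into active peptides, which act on G-protein-coupled receptors more slowly and over longer distances than classical transmitters. In the hippocampus most of them mark classes of GABAergic interneurons, while dynorphin is a product of dentate granule cells and is packed into their mossy fibres. Penk encodes proenkephalin and Pdyn prodynorphin, precursors of the enkephalins, which act mainly at delta and mu opioid receptors, and of the dynorphins, which act at kappa receptors. Both opioid systems are long studied in the actions of ethanol.

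Levels are given in CPM after scaling between libraries by the trimmed mean of M-values (TMM). Fold changes come from edgeR's quasi-likelihood test across 14578 genes, with p-values adjusted over all of them by Benjamini-Hochberg and a gene called at an adjusted p under 0.05. All 10 members passed the filter on low counts. To compare genes with one another, CPM was divided by exonic length in kilobases. On this scale the median over the 15 libraries was highest for Sst, at 346 CPM per kb, followed by Cck at 192, Npy at 116 and Penk at 27.1. The other members were lower by this measure: Vip had a median of 4.65 CPM per kb, Pdyn 3.03, Tac2 2.70, Tac1 2.21, Cartpt 1.95 and Crh 1.75. The order is loose, since the ranges of neighbours overlapped: Sst spanned 90.3 to 731 CPM per kb, Cck 112 to 480 and Npy 30.9 to 1501, and the 6 lowest members overlapped one another as well. Penk spanned 8.21 to 108 CPM per kb and lay below Cck in all 15 libraries.

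The members differed in how steady they were. Cck, precursor of cholecystokinin, had the narrowest range, with a 4.28-fold gap between its highest and lowest library. The gap was 8.10-fold for Sst, 11.0-fold for Crh, 11.1-fold for Vip, 13.1-fold for Penk, 14.6-fold for Tac1, 14.8-fold for Pdyn and 17.9-fold for Cartpt. It was widest for Tac2, at 41.8-fold, and Npy, at 48.6-fold. The library with the lowest CPM held 2 reads of Tac2, 5 of Crh and 6 of Cartpt, so counting error is large for these gaps, and it held 18 reads of Tac1.

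**Figure D1:**
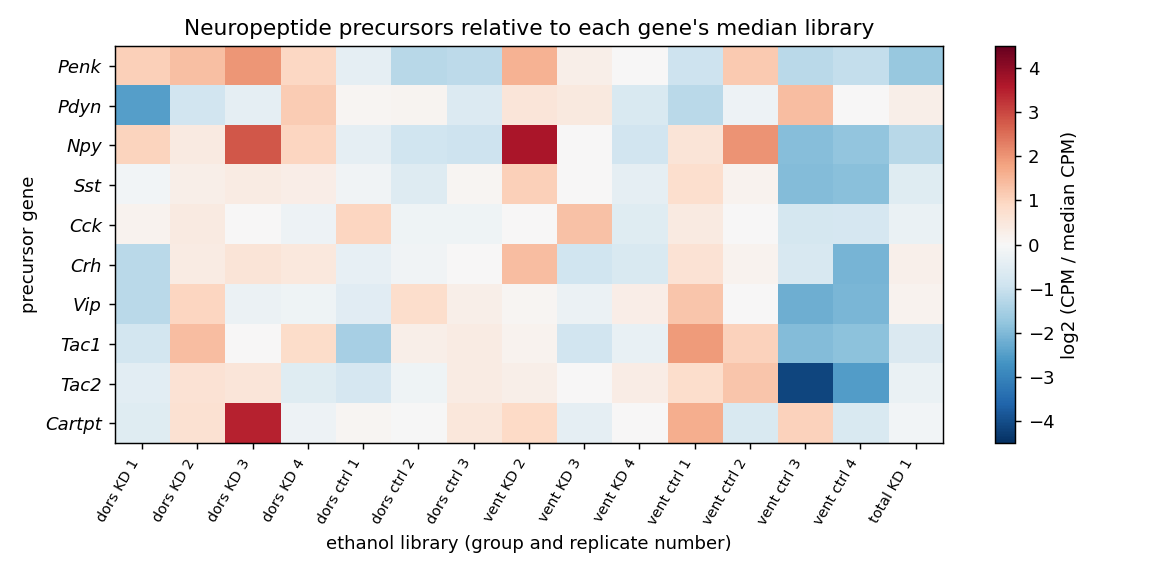
Colour map of the 10 members (rows) in the 15 ethanol libraries (columns), as log2 of each library's CPM over the member's median across the 15 libraries. Ventral control 3 is blue for all members except Pdyn and Cartpt, and the deepest reds are Npy in ventral knockdown 2 and dorsal knockdown 3 and Cartpt in dorsal knockdown 3.

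Penk had the lowest unadjusted p of the 10 members between vector arms in the dorsal hippocampus. The gene (ENSMUSG00000045573.9) lies on the minus strand at chr4:4133531-4138819 of mm10, is protein coding, and is overlapped on the other strand by the noncoding transcript A830012C17Rik, so reads of both could mix if the counting ignored strand. Its level was 92.7, 112, 176 and 84.8 CPM in the 4 dorsal knockdown libraries, against 33.3, 18.4 and 19.4 CPM in the 3 dorsal control libraries. Every dorsal knockdown library lay above every dorsal control library. Penk averaged 116 ± 41.5 CPM in dorsal knockdown (SD, n = 4) and 23.7 ± 8.34 CPM in dorsal control (SD, n = 3). The fitted log2 fold change, knockdown over control, was 2.33 (SE 0.61), or 5.02-fold, and its adjusted p by edgeR was 0.955. By unadjusted p Penk ranked 16 of 14578 genes, with an edgeR p of 0.0017 against an adjusted p of 0.955. DESeq2 gave a log2 fold change of 2.30 (SE 0.56) with an adjusted p of 0.0453, so Penk was called by that tool, which called 11 of 14548 genes, or 0.0756%. The call therefore depended on the tool, while the log2 fold change stayed between 2.05 and 2.62 when each library was left out in turn.

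In the ventral hippocampus Penk was at 130.3, 53.7 and 44.2 CPM in the 3 knockdown libraries, against 23.1, 100.2, 19.1 and 20.9 CPM in the 4 control libraries. Ventral control 2 stood above 2 of the 3 knockdown libraries, and the other 3 controls lay below all of them. The means were 76.1 ± 47.2 CPM in ventral knockdown (SD, n = 3) and 40.8 ± 39.6 CPM in ventral control (SD, n = 4). The log2 fold change was 0.91 (SE 0.55, edgeR adjusted p 1.00). It was 1.86 without ventral control 2 and 0.28 without ventral knockdown 2. Averaged over both regions, Penk was 1.62 higher on the log2 scale in knockdown (SE 0.40), ranked 12 of 14578 by unadjusted p, and was not called, with an edgeR adjusted p of 1.00. This average was 2.10 with an adjusted p of 0.0554 without ventral control 2. The difference between the dorsal and the ventral effect was 1.41 (SE 0.80), and it was not called either: edgeR called 0% of all genes for this difference, 672 genes passed at an unadjusted p under 0.05, or 4.61%, and DESeq2 called 9 of 14548, or 0.0619%. The knockdown library of total hippocampus had 13.4 CPM, the lowest of the 15 libraries.

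Microglial markers and Gfap moved with Penk, while the summed astrocyte markers overlapped between the dorsal arms. The summed level of 10 microglial markers was 505, 839, 1400 and 895 CPM in dorsal knockdown libraries 1 to 4, against 451, 472 and 335 CPM in the dorsal controls. In the ventral hippocampus it was 637, 563 and 457 CPM in knockdown libraries 2 to 4, against 382, 824, 356 and 475 CPM in controls 1 to 4. Ventral control 2, the control with the highest Penk level, also had the highest microglial sum and the highest Gfap level among controls, 1562 CPM. Gfap, an intermediate filament of astrocytes, ranged from 694 to 3641 CPM in dorsal knockdown and from 318 to 521 CPM in dorsal control. Of 9 astrocyte markers, Gfap among them, 3 had a positive and 6 a negative log2 fold change in the dorsal hippocampus, with a median of -0.12. Their summed level was 5090, 2419, 7359 and 4577 CPM in dorsal knockdown libraries 1 to 4, against 4193, 4782 and 3069 CPM in the dorsal controls. None of the 10 microglial markers was at 0 in any group. The part of glial RNA in the Penk difference was not tested. In bulk tissue a change in the number of cells of a type and a change in RNA per cell cannot be told apart.

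The genes whose log2 CPM followed Penk most closely over the 15 libraries, among 11363 candidates, were Kcne1l, with a Pearson r of 0.903, Serpina3n at 0.902, C1qb at 0.889, Gfap at 0.881 and Laptm5 at 0.878. Serpina3n, a protease inhibitor, is made by reactive astrocytes, C1qb is a complement subunit made by microglia, and Laptm5 is a lysosomal membrane protein of blood-derived and microglial cells. These correlations describe the 15 libraries, which share groups and depth differences. Among the members Penk followed Npy, with r = 0.855, and did not follow Pdyn, with r = -0.19.

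**Figure D2:**
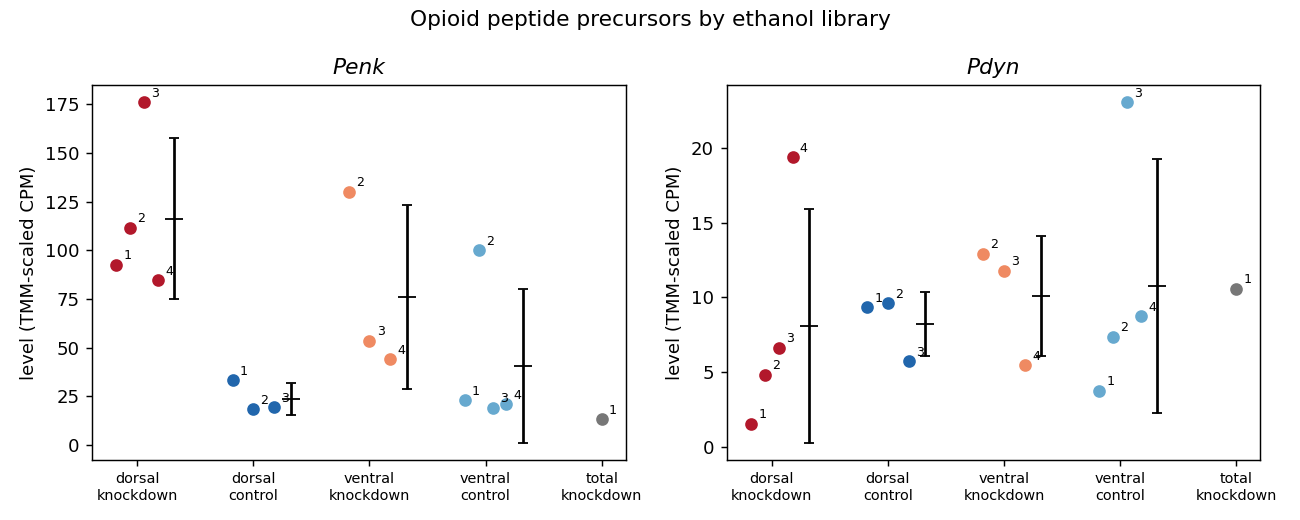
Penk and Pdyn in CPM (vertical axes) for each ethanol library, by group on the horizontal axis, with points for libraries and bars for mean ± SD. The 4 dorsal knockdown libraries sit between 84.8 and 176 CPM for Penk, above the dorsal controls at 18.4 to 33.3 CPM, while the groups overlap for Pdyn.

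Pdyn (ENSMUSG00000027400.11), on the minus strand at chr2:129686565-129699844 of mm10, showed no such gap between arms. Its level was 1.56, 4.84, 6.64 and 19.4 CPM in dorsal knockdown libraries, against 9.34, 9.60 and 5.74 CPM in dorsal controls. The knockdown libraries ranged both below and above the controls. Ventral knockdown libraries had 12.9, 11.8 and 5.49 CPM, against 3.79, 7.39, 23.0 and 8.76 CPM in ventral controls, so these groups overlapped too. The log2 fold change, knockdown over control, was -0.01 (SE 0.69) in the dorsal and -0.12 (SE 0.67) in the ventral hippocampus, neither called by edgeR. An SE near 0.7 leaves room for sizeable differences of either sign, and Pdyn changed sign in both regions when single libraries were left out. Without dorsal knockdown 4 the dorsal value was -0.89. Ventral control 3, the library with the highest Pdyn level, also had the highest summed level of 10 dentate granule cell markers, 1208 CPM against 175 to 450 CPM in the other ventral libraries. In dorsal knockdown libraries 1 to 4 that sum was 236, 231, 244 and 249 CPM, while Pdyn ran from 1.56 to 19.4 CPM. The share of dentate tissue in the Pdyn level of ventral control 3 was not tested. The genes nearest to Pdyn over the 15 libraries were Fam163b, with r = 0.820, Gfra2 at 0.806 and Fam114a2 at 0.779, followed by Mkx at 0.758 and Dclk3 at 0.755. Gfra2 is the neurturin receptor.

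The opioid receptors showed no called difference between arms. In the dorsal hippocampus the log2 fold change, knockdown over control, was -0.98 (SE 0.70) for the mu receptor Oprm1, -0.38 (SE 0.44) for the delta receptor Oprd1, 1.64 (SE 1.03) for the kappa receptor Oprk1 and -0.12 (SE 0.24) for the nociceptin receptor Oprl1.

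Npy, precursor of neuropeptide Y, an inhibitory peptide of interneurons that limits excitability, varied more than any other member. It was at 132, 87.3, 462 and 129 CPM in the dorsal knockdown libraries, against 50.2, 35.5 and 34.4 CPM in the dorsal controls. The groups did not overlap, and dorsal knockdown 3 was far above the rest. The ventral knockdown libraries had 849.8, 65.8 and 36.2 CPM, against 98.1, 269, 17.5 and 19.3 CPM in the ventral controls, so these groups overlapped. The log2 fold change, knockdown over control, was 2.35 (SE 1.12) dorsally and 1.66 (SE 1.03) ventrally, neither called by edgeR. Leaving out dorsal knockdown 3 brought the dorsal value down to 1.55, and leaving out ventral knockdown 2 turned the ventral value to -0.98. The nearest genes over the 15 libraries were Scg2, with r = 0.929, the precursor of secretoneurin, then Fcer1g at 0.912, a microglial immune receptor subunit, and Slc14a1 at 0.878, a urea transporter of astrocytes. Gfap was highest in the 3 libraries with the highest Npy levels, at 3641 CPM in dorsal knockdown 3, 1694 CPM in ventral knockdown 2 and 1562 CPM in ventral control 2. The microglial sum did not follow Npy as closely: it was 637 CPM in ventral knockdown 2, where Npy was at 849.8 CPM, and 839 and 895 CPM in dorsal knockdown libraries 2 and 4, where Npy was at 87.3 and 129 CPM. The part of glia in the Npy level was not tested.

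Sst is the precursor of somatostatin, which is released by interneurons that inhibit pyramidal dendrites. It was at 227, 302, 324 and 304 CPM in dorsal knockdown libraries, against 223, 166 and 265 CPM in dorsal controls. Ventral knockdown libraries had 527, 249 and 186 CPM, against 425, 281, 65.1 and 67.2 CPM in ventral controls. The groups overlapped in both regions, with log2 fold changes, knockdown over control, of 0.41 (SE 0.56) dorsally and 0.62 (SE 0.55) ventrally, neither called. The 2 lowest libraries were ventral controls 3 and 4, and the highest was ventral knockdown 2, as for Npy. The Pearson r of Npy and Sst over the 15 libraries was 0.789.

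**Figure D3:**
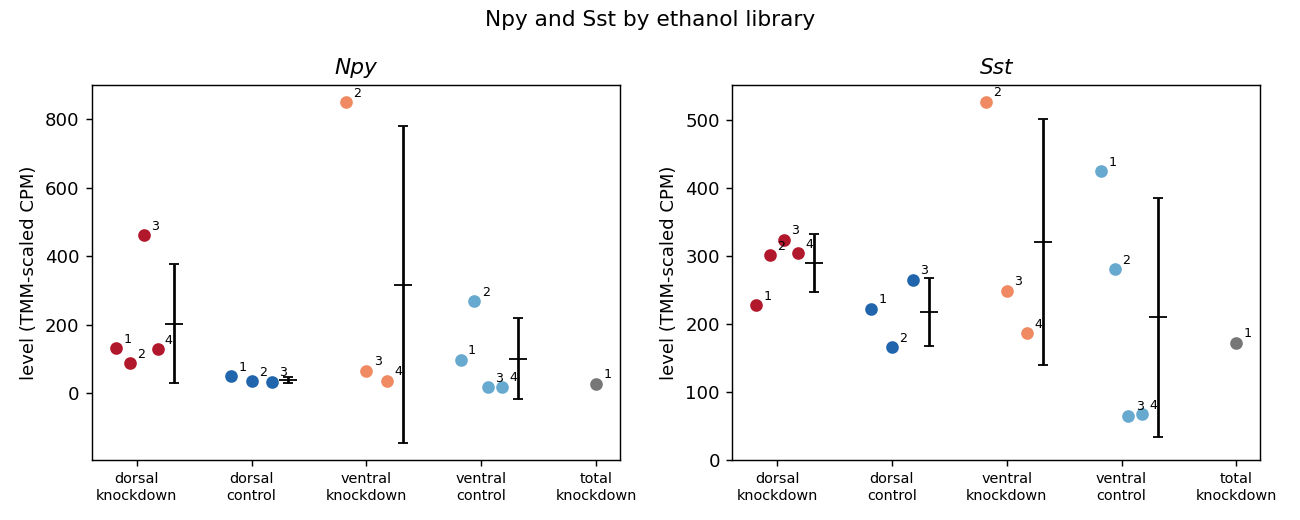
Npy and Sst in CPM (vertical axes) for each ethanol library, by group on the horizontal axis, with points for libraries and bars for mean ± SD. Npy reaches 849.8 CPM and Sst 527 CPM in ventral knockdown 2, and both are lowest in ventral controls 3 and 4.

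Ventral control 3 was the lowest of the 15 libraries for 6 members, Npy, Sst, Cck, Vip, Tac1 and Tac2, and ventral control 4 was the lowest for Crh. The summed CPM of the members was 272 in ventral control 4 and 283 in ventral control 3, and it reached 1811 in ventral knockdown 2. Over the 15 libraries Vip, precursor of vasoactive intestinal peptide in interneurons that target other interneurons, followed Tac2 with r = 0.838 and Tac1 with r = 0.832. Sst followed Tac2 with r = 0.847. The summed level of 16 GABAergic interneuron markers was 1389 and 1398 CPM in ventral controls 3 and 4, and 1634 and 1972 CPM in ventral controls 1 and 2, a smaller gap than for the peptides themselves.

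Promoter sequences are shown for the 6 members that were lowest in ventral control 3, and for Cartpt, which was not low there, because the somatostatin promoter is the textbook case of a cyclic AMP response element (CRE), the site TGACGTCA bound by CREB. Each line gives the 120 bases before the RefSeq transcription start on GRCm38.p6, 5′ to 3′ on the gene's strand, with capitals marking TGACGTCA or the shorter TGACG on either strand (CGTCA when it lies on the other strand), which is contained in the full site. The RefSeq tables matched 8 of the 10 members, with Penk and Crh the exceptions.
Sst (chr16:23890845-23890964, minus strand): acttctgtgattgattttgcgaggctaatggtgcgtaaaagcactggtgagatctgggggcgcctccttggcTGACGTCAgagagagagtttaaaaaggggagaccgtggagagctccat
Cck (chr9:121495695-121495814, minus strand): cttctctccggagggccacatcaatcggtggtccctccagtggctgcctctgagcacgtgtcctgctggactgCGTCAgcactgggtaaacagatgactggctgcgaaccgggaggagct
Vip (chr10:5639098-5639217, plus strand): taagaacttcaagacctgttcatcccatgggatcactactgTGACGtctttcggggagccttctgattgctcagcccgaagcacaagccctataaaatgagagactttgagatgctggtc
Tac1 (chr6:7554941-7555060, plus strand): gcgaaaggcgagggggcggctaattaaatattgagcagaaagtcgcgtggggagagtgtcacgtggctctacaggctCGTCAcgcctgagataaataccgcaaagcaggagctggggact
Npy (chr6:49822590-49822709, plus strand): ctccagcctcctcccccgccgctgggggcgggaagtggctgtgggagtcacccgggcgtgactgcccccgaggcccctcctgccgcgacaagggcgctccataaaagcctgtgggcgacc
Tac2 (chr10:127724358-127724477, plus strand): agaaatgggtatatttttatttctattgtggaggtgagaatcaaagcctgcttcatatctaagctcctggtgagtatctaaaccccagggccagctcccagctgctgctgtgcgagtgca
Cartpt (chr13:99900684-99900803, minus strand): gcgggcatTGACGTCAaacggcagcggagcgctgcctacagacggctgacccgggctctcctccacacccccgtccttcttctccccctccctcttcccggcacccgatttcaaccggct
The full site stands in the Sst and Cartpt windows with its first base 48 and 112 bases before the start, and the short form alone in the Cck, Vip and Tac1 windows at 47, 79 and 43 bases. The Npy and Tac2 windows hold neither form, and nor do those of Pdyn. TGACG was thus present in 4 of the 6 members that were lowest in ventral control 3, and in Cartpt, which was not. The 6 were picked by their level in that 1 library, so this count has no bearing on their levels. A link between the site and the levels was not tested. Of the 8 members with a sequence, 5 held TGACG on either strand and 2 held the full site. Among 32851 windows of the same length, 11.7% held TGACG and 1.24% the full site. The motif was chosen for the known site of Sst, itself a member. The member counts are per gene and the shares per window. The counts are therefore no test of enrichment. A match describes the letters and does not show a bound site.

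Cck was at 278, 333, 254 and 214 CPM in dorsal knockdown libraries, against 495, 218 and 221 CPM in dorsal controls. Ventral knockdown libraries had 251, 627 and 170.4 CPM, against 335, 256, 146 and 147 CPM in ventral controls. The log2 fold change, knockdown over control, was -0.20 (SE 0.44) dorsally and 0.66 (SE 0.44) ventrally, with overlapping groups and no call. The genes nearest to Cck over the 15 libraries were Cox8a, with r = 0.940, Cox6a1 at 0.931 and Sf3b5 at 0.909, the first 2 being subunits of mitochondrial cytochrome c oxidase. Vip averaged 16.2 ± 10.4 CPM in dorsal knockdown (SD, n = 4) and 19.0 ± 7.99 CPM in dorsal control (SD, n = 3), and 16.5 ± 3.27 CPM in ventral knockdown (SD, n = 3) and 15.2 ± 16.1 CPM in ventral control (SD, n = 4). Ventral control 1 had the highest Vip level of all libraries, 37.9 CPM, and ventral controls 3 and 4 the lowest, 3.41 and 3.83 CPM.

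The tachykinin precursors Tac1, which gives substance P and neurokinin A, and Tac2, which gives neurokinin B, also differed most among the ventral controls. Tac1 was at 8.37, 4.14 and 5.90 CPM in the ventral knockdown libraries, against 28.1, 15.6, 1.92 and 2.08 CPM in ventral controls 1 to 4. The knockdown libraries lay between the 2 high and the 2 low controls. Tac2 was at 4.43, 3.72 and 4.66 CPM in the ventral knockdown libraries, against 6.49, 8.92, 0.21 and 0.66 CPM in the same controls, with the same placing. In the dorsal hippocampus Tac1 averaged 11.1 ± 6.72 CPM in knockdown (SD, n = 4) and 7.11 ± 3.87 CPM in control (SD, n = 3). Tac2 averaged 4.14 ± 1.77 CPM there in knockdown (SD, n = 4) and 3.43 ± 1.31 CPM in control (SD, n = 3). None of these differences was called.

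Crh, precursor of the stress peptide corticotropin-releasing hormone, was scarce, at 0.99 to 3.48 CPM in dorsal knockdown and 1.78 to 2.31 CPM in dorsal control libraries. It was at 1.24 to 6.03 CPM in ventral knockdown and 0.55 to 3.61 CPM in ventral control libraries. Cartpt, precursor of the CART peptides, was at 1.70, 3.97, 27.4 and 2.14 CPM in dorsal knockdown libraries, against 2.67, 2.47 and 3.57 CPM in dorsal controls. A single library, dorsal knockdown 3, carried the dorsal log2 fold change of 1.58 (SE 0.89), which was -0.16 without it. The same library had the highest summed level of 14 hypothalamic markers, 173 CPM, of which Trh, precursor of thyrotropin-releasing hormone, made 148 CPM, and the precursor genes Gal at 15.9 CPM, Avp at 1.20 CPM and Oxt at 0.54 CPM also had their highest level there, which makes 4 of the 14 markers. The hypothalamic transcription factors Sim1 and Otp were at 0 in every dorsal knockdown library. Over the 15 libraries they were at most 0.21 and 0.18 CPM. Magel2 and Gpr101, markers of the same list, had their lowest level of the 15 libraries in dorsal knockdown 3, at 0.22 and 1.41 CPM. Trh was also among the genes nearest to Cartpt over the 15 libraries, at r = 0.745, after Slc22a4 at 0.804. The part of hypothalamic tissue in the Cartpt level of that library was not tested.

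**Figure D4:**
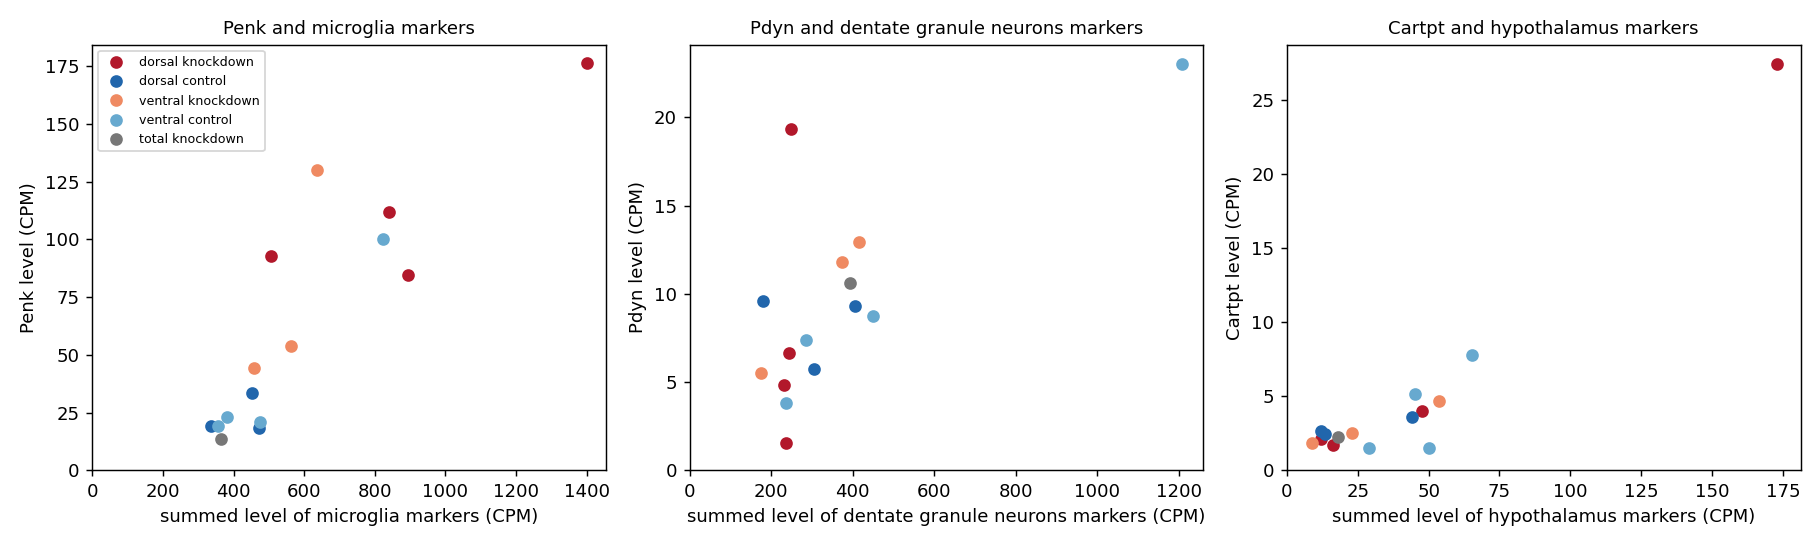
Levels in CPM on linear axes, one point per ethanol library and coloured by group: Penk against the summed microglial markers, Pdyn against the summed dentate granule cell markers and Cartpt against the summed hypothalamic markers. Penk and the microglial sum are highest in dorsal knockdown 3, and Pdyn and the dentate sum in ventral control 3. Pdyn is also high in dorsal knockdown 4, where the dentate sum is 249 CPM. Cartpt and the hypothalamic sum, which is mostly Trh there, are highest in dorsal knockdown 3.

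Across the members as a group, 0 of 10 were called by edgeR in the dorsal knockdown against dorsal control comparison, where 0% of all genes were called. At an unadjusted p under 0.05, 1 of the 10 was higher, Penk, against 3.39% of all genes higher, and 667 of 14578 genes passed in either direction, or 4.58%. DESeq2 called 11 genes in this comparison, among them Penk. The libraries of the groups did not overlap for 2 members that were higher in knockdown, Penk and Npy, against 3.77% of all genes, and for no member that was lower, against 3.26%. Positive log2 fold changes were found for 7 of 10 members, with a median of 0.38. Of all 14578 genes 7769 were positive, with a median of 0.03. Some members followed one another over the libraries, as Penk and Npy with r = 0.855, so these signs are not independent.

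In the ventral knockdown against ventral control comparison, 0 of 10 members and 0% of all genes were called by edgeR, and 0 members passed at an unadjusted p under 0.05, where 593 of 14578 genes did, or 4.07%. DESeq2 called 35 of 14548 genes, or 0.241%. Libraries of the arms overlapped for all 10 members, where 1.05% of all genes were higher in every knockdown library and 1.63% lower. The log2 fold change was positive for 7 of 10 members, with a median of 0.36. It was positive for 7033 of all 14578 genes, with a median of -0.01. Averaged over both regions, 0 members were called by edgeR, against 0% of all genes, and 2 members, Penk and Npy, passed at an unadjusted p under 0.05, where 577 genes did, or 3.96%. DESeq2 called 4 of 14548 genes for that average, or 0.0275%. Npy was 2.01 higher in knockdown on the log2 scale (SE 0.76), and Pdyn differed by -0.06 (SE 0.48).

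For dorsal against ventral hippocampus in control libraries, edgeR called 0 of 10 members and 0% of all genes. No member passed at an unadjusted p under 0.05, where 813 of 14578 genes did, or 5.58%, and DESeq2 called 13 of 14548 genes, or 0.0894%. Dorsal and ventral libraries overlapped for all 10 members, where 5.54% of all genes were higher in every dorsal library and 3.72% lower. Log2 fold changes, dorsal over ventral, were positive for 4 members and negative for 6, with a median of -0.27, and positive for 6361 of all genes. They ran from -1.34 (SE 1.08) for Npy and -0.80 (SE 0.58) for Penk to 0.37 (SE 0.69) for Vip and 0.49 (SE 0.44) for Cck. In knockdown libraries edgeR again called 0 of 10 members and 0% of all genes in the dorsal against ventral comparison, 317 of 14578 genes passed at an unadjusted p under 0.05, or 2.17%, and DESeq2 called 0. The regions overlapped again for all 10 members, where 1.04% of all genes were higher in every dorsal library and 0.713% lower. The median over the members was -0.07. Cartpt had the highest log2 fold change there, 1.56 (SE 0.87), which was -0.19 without dorsal knockdown 3, and Npy the lowest, -0.65 (SE 1.02). These comparisons share libraries with the comparisons between arms.

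**Figure D5:**
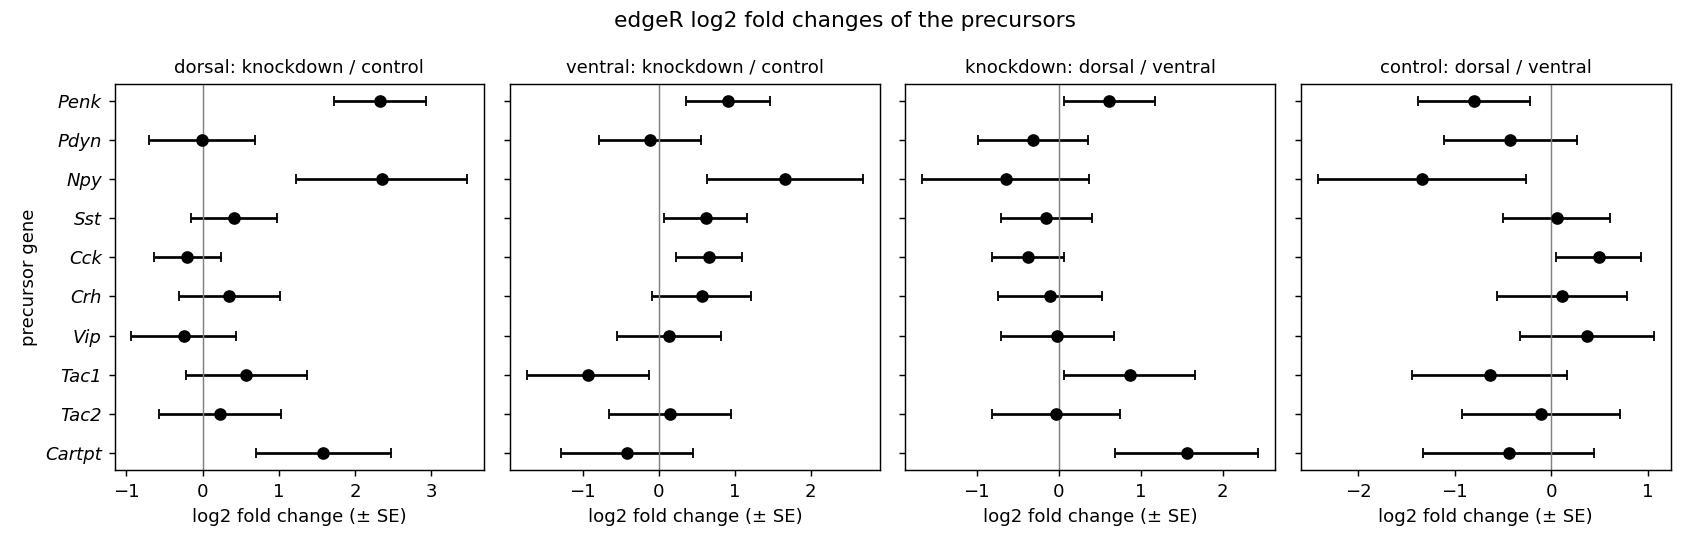
Log2 fold changes with SE bars for the 10 members in 4 comparisons: dorsal and ventral knockdown over control, and dorsal over ventral hippocampus in control and in knockdown libraries. Penk at 2.33 and Npy at 2.35 lie farthest to the right in the dorsal knockdown panel, with Npy carrying the wider bar.

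Other neuropeptide precursors were counted as a background for the members, 16 of a list of 27 having passed the filter. In dorsal knockdown against dorsal control 12 of the 16 were higher and 4 lower, with a median log2 fold change of 0.54 and no call by edgeR. Of all 14578 genes 7769 were higher there. Gal, precursor of galanin, had the lowest unadjusted p of these, with a log2 fold change of 5.05 (SE 1.76, edgeR adjusted p 0.955). It averaged 5.49 ± 6.95 CPM in dorsal knockdown (SD, n = 4) and 0.22 ± 0.22 CPM in dorsal control (SD, n = 3). The fold thus rests on very low control counts and on a knockdown mean raised by dorsal knockdown 3, at 15.9 CPM. Scg2 was at 339 ± 168 CPM in dorsal knockdown (SD, n = 4) and 149 ± 11.3 CPM in dorsal control (SD, n = 3), and these groups did not overlap. Its highest level, 585 CPM, was also in dorsal knockdown 3. Of the 16 genes, 2 were higher without overlap, against 3.77% of all genes, and 1 was lower, against 3.26%. In the ventral hippocampus 12 of the 16 were higher and 4 lower in knockdown, with a median of 0.42, and 7033 of all genes were higher.

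Neuropeptide receptors were represented by 19 of 23 listed genes. The list was not limited to receptors for the member peptides. It also held Crhbp, a CRH-binding protein, and Oprl1 and Adcyap1r1, receptors whose main ligands are not member peptides. In the dorsal hippocampus 7 of these 19 genes were higher and 12 lower in knockdown, with a median log2 fold change of -0.12. In the ventral hippocampus 9 were higher and 10 lower. The receptors with the lowest unadjusted p were Crhr1 dorsally, at -0.70 (SE 0.35), and Crhr2 ventrally, at -1.29 (SE 0.65), both receptors of the CRH family and neither called. Vipr1, a receptor for VIP, was 1.04 higher in dorsal than in ventral control libraries (SE 0.38, edgeR adjusted p 0.731), with 32.6 ± 2.95 CPM dorsally (SD, n = 3) and 15.8 ± 6.22 CPM ventrally (SD, n = 4). For 5 of the 19 listed genes, Vipr1 among them, every dorsal control library lay above every ventral one, against 5.54% of all genes. For 0 of the 19 every dorsal library lay below, against 3.72%. Genes that process or degrade the peptides were represented by 19 of 20. In dorsal knockdown Mme, the peptidase neprilysin, which cleaves enkephalins, was at 2.59 ± 1.54 CPM (SD, n = 4), against 6.95 ± 1.15 CPM in dorsal control (SD, n = 3), a log2 fold change of -1.42 (SE 0.46, edgeR adjusted p 0.955). Pcsk1n, an inhibitor of the prohormone convertase PC1, was at 767 ± 266 CPM in ventral knockdown (SD, n = 3), against 405 ± 95.2 CPM in ventral control (SD, n = 4), a log2 fold change of 0.92 (SE 0.26, adjusted p 0.665). No receptor or processing gene was called by edgeR in any of the 4 comparisons between arms or regions.

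Immediate early genes, which neuronal activity induces, were a further group in the dorsal knockdown libraries: their summed level was 4454, 677, 1428 and 5813 CPM in dorsal knockdown libraries 1 to 4, against 1824, 1774 and 1289 CPM in dorsal controls. Of the 27 genes 22 had a positive and 5 a negative log2 fold change, with a median of 1.04 and no call by edgeR. Over all 14578 genes 7769 were positive. Penk was at 92.7, 112, 176 and 84.8 CPM in dorsal knockdown libraries 1 to 4, and the part of activity in its level was not tested.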

How the data were processed

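Gene counts were made by the authors with STAR 2.5.2a and HTSeq 0.6.1p1 on mm10, per the submitters' processing notes, and are deposited as raw counts per gene in 21 sample columns. The kit is directional per the labels, but no source used here states the strand setting of the counting. A transcript antisense to Penk, A830012C17Rik, overlaps it. Summary rows were removed. Libraries with over 1000000 gene reads were kept, and filterByExpr (minimum count 10), TMM scaling and quasi-likelihood tests with 4 group means were run in edgeR 4.0.16 under R 4.3.3. The fit was tested on data simulated with the same spread for every gene. That check does not show how well changes are detected in the members, whose spread differed from gene to gene and was not simulated. CPM levels and correlations (log2 with a prior count of 1) used 15 libraries. DESeq2 1.42.0, each library left out, a replicate term and other filters and scalings were alternatives. Annotation was GENCODE M21. Members and gene lists were chosen with earlier results of these data known. Named genes follow a rule: all members, their nearest patterns, and the list genes with the lowest p. The 4 untreated libraries, of 4279 to 221847 gene reads, and 2 shallow ethanol libraries, of 5021 and 8744, were left out. In the untreated libraries only 0.991 to 1.43% of uniquely aligned reads lay in genes, against 66.6 and 71.7% in the shallow ethanol libraries.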

Additional observations from a re-analysis of the deposited data

Results flagged for a closer look

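Penk in ventral control 2, at 100.2 CPM, stood apart from the other 3 ventral controls by 0.951 of the range of the group. Npy in dorsal knockdown 3, at 462 CPM, stood apart from the other dorsal knockdown libraries by 0.880 of the range. Cartpt in the same library, at 27.4 CPM, stood apart by 0.912 of the range. These 3 came from 20 groups tested. Chance flags about 1 in 20 where values are normally distributed and groups independent. CPM levels were not checked for the first, and the Npy and Cartpt flags share a library, so that rate may not hold here. The 4 untreated libraries entered no comparison because they held few gene reads. Only 0.991 to 1.43% of their uniquely aligned reads lay in genes, against 57.4 to 81% in the libraries described above. They held 145 reads of Sst, 60 of Npy, 21 of Cck and 13 of Penk in sum. These sums are above the limit of 3 counts that a count of 0 allows. With so small a share of reads in genes, they were not read as expression levels.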

How the results depend on the processing

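No member was called by edgeR under any setting, and Penk in the dorsal hippocampus was called by DESeq2. Counts of called genes, 0 in every comparison by edgeR, were 11 (dorsal arms), 35 (ventral arms), 4 (arm average), 13 (regions in control) and 9 (difference between the arm effects) by DESeq2, and 1 for the ventral arms and 1 for the difference between effects with all 20 dorsal and ventral libraries. With single libraries left out they ran from 0 to 8 for the ventral arms, 0 to 2 for the arm average, 0 to 6 for regions in control and 0 to 2 for the difference. The highest counts came without ventral control 1, and for the difference without ventral knockdown 3. Of 46 member results, 31 changed sign in at least 1 such fit; the causes were not tested.

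With single libraries left out, dorsal arm log2 fold changes ran from -0.89 to 0.33 for Pdyn, -0.77 to 0.085 for Vip, -0.16 to 1.92 for Cartpt and -0.41 to 0.30 for Cck. Ventral arm values ran from -0.98 to 2.84 for Npy, -0.52 to 1.04 for Crh, -0.061 to 1.00 for Cck and -0.40 to 0.59 for Pdyn. They ran from -1.30 to 0.0067 for Tac1, -0.87 to 0.084 for Cartpt, -0.21 to 1.18 for Vip and -0.28 to 0.90 for Tac2. Averaged over regions, Pdyn ran from -0.50 to 0.29. For regions in control they ran from -0.0092 to 0.75 for Cck, -0.54 to 0.64 for Tac2, -0.24 to 0.66 for Sst and -1.01 to 0.30 for Tac1. They ran from -0.73 to 0.056 for Cartpt, -1.09 to 0.14 for Penk, -0.72 to 0.28 for Pdyn and -0.23 to 0.58 for Crh. For regions in knockdown they ran from -1.19 to 0.011 for Pdyn, -0.47 to 0.99 for Crh, -0.54 to 0.23 for Vip and -0.25 to 0.14 for Tac2. They ran from -0.19 to 2.02 for Cartpt, -1.45 to 1.99 for Npy, -0.43 to 0.41 for Sst and -0.71 to 0.35 for Cck. The difference between arm effects ran from -0.48 to 3.34 for Npy and -0.77 to 0.44 for Pdyn.

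Libraries with the same replicate number showed no steady shared deviation. Over 18 such pairs r ran from -0.22 to 0.37, with 6 over 0.1, and over 55 other pairs from -0.45 to 0.60. Dorsal and ventral libraries of the same number and arm gave -0.14, -0.078 and 0.37 in knockdown (numbers 2 to 4). They gave -0.16, 0.089 and -0.035 in control (numbers 1 to 3). The numbers were not taken as pairs, though these few values cannot exclude that some libraries share an animal. With a replicate block, the sign changed for Cck (dorsal arms, 0.12), Cartpt (ventral arms, 0.031), Tac2 (regions in control, 0.016), Npy and Crh (regions in knockdown, 0.65 and 0.14) and Pdyn (difference, -0.32), and no member was called. Without dorsal knockdown 3 and ventral controls 2 and 4 together, chosen after seeing the data, the dorsal arm values were 0.079 for Pdyn and -0.15 for Cartpt, and the ventral arm value was -0.29 for Vip. Regions in control then gave 0.14 for Penk, -0.16 for Sst, -0.21 for Crh, -0.067 for Vip and 0.17 for Tac2. Regions in knockdown gave 0.072 for Vip and -0.18 for Cartpt, and the difference was -0.91 for Npy. Penk was 2.06 dorsally and 1.86 ventrally there. Depth limits Tac2, Crh and Cartpt, with 2, 5 and 6 reads in their libraries of lowest CPM.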
